A study of Mus musculus with 12 samples.

Results

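The genes described here encode 7 components of basement membranes: the nidogens Nid1 and Nid2, the heparan sulfate proteoglycans Hspg2 (perlecan), Agrn (agrin) and Col18a1 (collagen XVIII), the integrin ligand Npnt (nephronectin), and Sparc, a matricellular protein that binds collagen. They were chosen by name for their role, as 7 of the 26264 gene symbols in the count tables, and all 7 were among the 17002 genes tested. The study compared glomeruli of BALB/cAjcl mice (Ajcl) with those of mice of the related substrain BALB/cByJcl (ByJcl), before and after adriamycin (ADR, doxorubicin), an anthracycline that injures podocytes. All mice were males of 8 weeks. There were 4 groups of 3 libraries: untreated baseline Ajcl, untreated baseline ByJcl, and each substrain at Day 5 after a single intravenous dose of ADR at 10 mg/kg. Saline-treated mice were not analysed here, so the injection and ADR cannot be told apart.

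The glomerular basement membrane lies between podocytes and endothelium and is built on networks of laminin and type IV collagen. Nidogens bind both laminin and type IV collagen, and perlecan, agrin and collagen XVIII carry heparan sulfate chains on their core proteins. Agrin is abundant in the mature glomerular basement membrane, perlecan lies largely in the mesangial matrix, and nephronectin is a ligand of integrin alpha8beta1, which mesangial cells carry.

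Glomeruli had been collected with magnetic beads, so each library held RNA of several cell types, and in such samples fewer cells of a type and less RNA per cell cannot be told apart. Totals were 42198416 to 54687045 counts, and the 10 podocyte markers checked summed to 9834 to 21807 CPM (counts per 1000000 counts of the library), against 347 to 3236 for 8 proximal tubule markers. The library Ajcl Day 5 replicate 1 had the highest tubule marker sum and the lowest podocyte to tubule ratio of the 12 (2.21). Ajcl baseline replicate 3, kept in the fits, came next on both (ratio 3.56). The study leaves Ajcl Day 5 replicate 1 out of its main analysis for reduced glomerular purity. The fits below used the other 11 libraries, so Ajcl Day 5 had n = 2, and levels are CPM after scaling by the trimmed mean of M-values (TMM). When all 12 libraries were scaled together, 6 of the 7 genes had their lowest level in the excluded library and Npnt its second lowest, with Hspg2 at 179 CPM and Nid1 at 213 CPM. Levels of that library are given on this scale, which differs slightly from that of the 11. Baseline and Day 5 counts came in separate tables, so any difference in how the tables were made and the effect of ADR cannot be told apart.

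None of the 7 genes passed the threshold (adjusted p below 0.05) in any of the 7 comparisons fitted with edgeR. Over all genes, 0.159% passed for ByJcl against Ajcl at baseline, 0.165% at Day 5 and 0.565% averaged over both times. The shares for Day 5 against baseline were 0.312% in Ajcl, 10.6% in ByJcl and 10.4% averaged over the substrains. For the interaction 0 genes (0.0%) passed in edgeR, against 1363 at an unadjusted p below 0.05 and 22 in DESeq2. Among the members, Sparc in ByJcl against Ajcl averaged over both times had an edgeR adjusted p of 0.124, and Npnt at Day 5 against baseline in ByJcl had 0.0806. DESeq2 called 3 of the 49 member values: Sparc between substrains at Day 5 and averaged over both times, where it called 3.15% and 3.98% of all genes, and Npnt for ADR in ByJcl, where it called 15.8%.

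Per kilobase of exon, Sparc had the highest level, with a mean of 402 CPM per kb over the 11 libraries. It was followed by Npnt (156), Col18a1 (108), Agrn (73.0), Nid1 (49.1), Hspg2 (32.2) and Nid2 (19.4). Each gene stood above the next in 11 of 11 libraries, except that Npnt stood above Col18a1 in 10 of 11. Only the ranges of Sparc and Npnt, and of Col18a1 and Agrn, did not overlap between neighbours in this order.

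Of the 7 genes, 3 (Agrn, Npnt and Sparc) had no overlap between groups in at least 1 of the 4 comparisons of single groups, as had 64.0% of all genes, so this share was not above the background. Their promoter sequences are shown as a description only, and a part of the sequences in the values below was not tested. Each is the 250 bases before a RefSeq transcription start (for Npnt and Agrn, the more upstream of 2), on the gene's strand and matched to GRCm39, with the GC box (GGGCGG or its reverse complement CCGCCC, overlaps counted) and TATAAA or its reverse complement TTTATA in capitals. Sparc lies at chr11:55285317-55314067 on the minus strand (window chr11:55310907-55311156), Npnt at chr3:132587506-132656257 on the minus strand (window chr3:132656053-132656302) and Agrn at chr4:156249740-156282014 on the minus strand (window chr4:156281946-156282195).
Sparc: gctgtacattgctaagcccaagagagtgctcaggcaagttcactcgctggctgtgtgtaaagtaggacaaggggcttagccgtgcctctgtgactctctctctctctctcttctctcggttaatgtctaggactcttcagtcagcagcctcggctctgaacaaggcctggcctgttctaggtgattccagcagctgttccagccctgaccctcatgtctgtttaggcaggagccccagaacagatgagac
Npnt: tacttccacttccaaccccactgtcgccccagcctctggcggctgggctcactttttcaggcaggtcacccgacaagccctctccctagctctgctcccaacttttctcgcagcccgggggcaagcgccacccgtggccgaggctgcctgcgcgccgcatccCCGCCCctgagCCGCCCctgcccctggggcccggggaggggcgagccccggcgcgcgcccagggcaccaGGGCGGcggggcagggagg
Agrn: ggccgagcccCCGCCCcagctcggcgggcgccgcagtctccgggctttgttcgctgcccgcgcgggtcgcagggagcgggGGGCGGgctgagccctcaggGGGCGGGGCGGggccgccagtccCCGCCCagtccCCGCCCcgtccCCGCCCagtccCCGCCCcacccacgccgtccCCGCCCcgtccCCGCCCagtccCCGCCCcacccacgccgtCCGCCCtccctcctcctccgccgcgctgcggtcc
As GENCODE draws the genes, the Sparc window lies inside its gene, and the Npnt and Agrn windows lie partly inside theirs. The Sparc window held 0 GC boxes and 54.0% G and C. The Npnt window held 3 GC boxes at 74.0% G and C, and the Agrn window 12 at 83.6%. The second windows of these genes, further into the gene, held 0 GC boxes at 69.6% for Npnt and 2 at 60.8% for Agrn. No TATAAA was found in any of the 9 windows of the 6 members that had one. Of 32851 windows over all genes, 32.7% held a GC box and 12.4% a TATA motif. A motif match is a description of these letters and not a binding site.

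**Figure D1:**
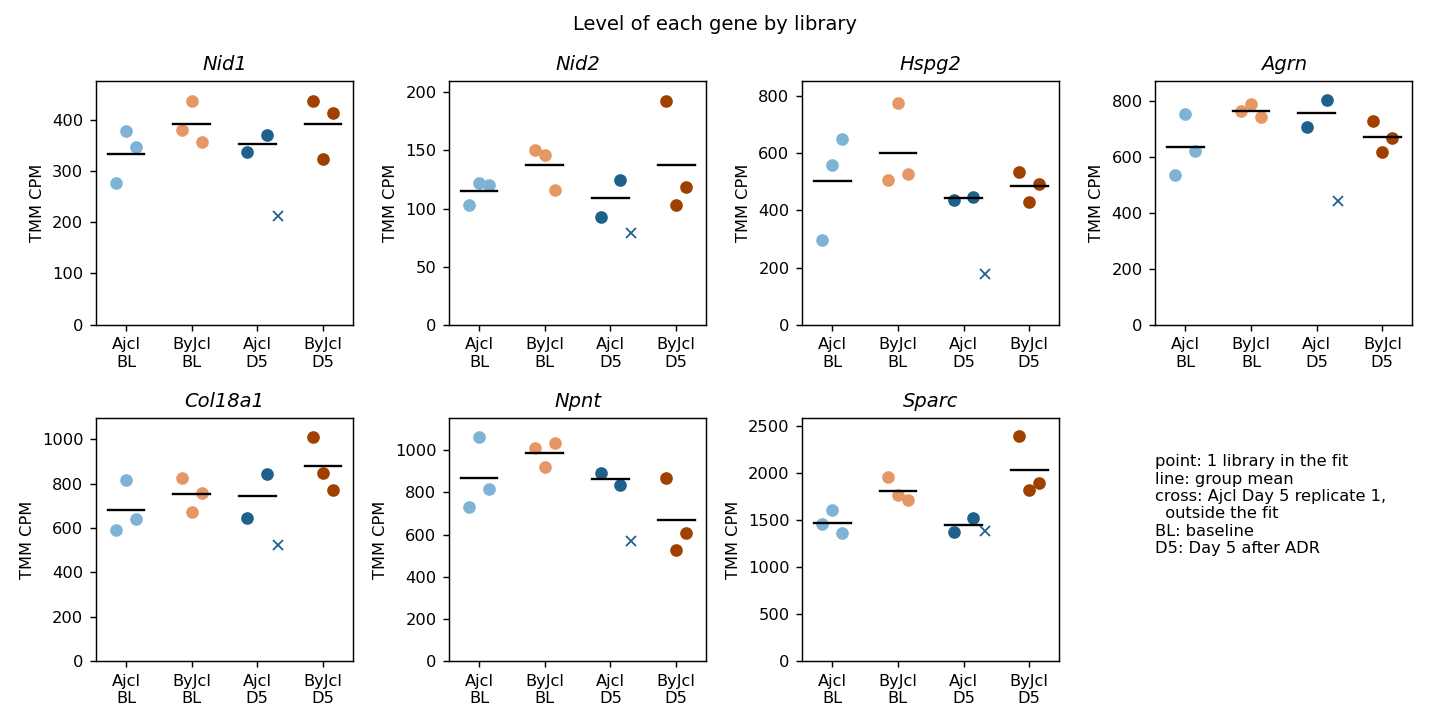
TMM-scaled CPM of each gene (y axes, linear, from 0) in each library by group (x axes; BL, baseline; D5, Day 5); points are libraries, lines are group means, and the cross is the Ajcl Day 5 library outside the fit, on the scale of all 12 libraries. Sparc was higher in every ByJcl library than in any Ajcl library of the same time, and Npnt was lower in every ByJcl Day 5 library than in any ByJcl baseline library.

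Nid1, the more abundant nidogen (chr13:13612071-13686860, plus strand), was at 275.6, 376.8 and 345.5 CPM in baseline Ajcl and 379.4, 435.3 and 356.6 CPM in baseline ByJcl. At Day 5 it was at 335.9 and 370.7 CPM in Ajcl and 437.0, 322.4 and 412.4 CPM in ByJcl. The groups overlapped in each comparison, with baseline Ajcl replicate 1 the lowest library in the fit. The log2 fold change of ByJcl against Ajcl was 0.23 (SE 0.15) at baseline and 0.14 (SE 0.17) at Day 5. For Day 5 against baseline in ByJcl it was 0.00 (95% interval -0.33 to 0.33, edgeR adjusted p = 0.998), an interval that leaves room for changes of up to 1.26-fold.

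Nid2, its paralog (chr14:19801298-19861855, plus strand), was at 102.7, 121.7 and 120.7 CPM in baseline Ajcl and 150.7, 146.3 and 116.1 CPM in baseline ByJcl. At Day 5 it was at 92.8 and 124.5 CPM in Ajcl and 192.2, 102.9 and 118.2 CPM in ByJcl. The ByJcl Day 5 libraries overlapped every other group, and replicate 1 was the highest library, for a coefficient of variation of 34.6%. ByJcl against Ajcl averaged over both times was 0.30 (SE 0.16, edgeR adjusted p = 0.393), and Day 5 against baseline in ByJcl was 0.00 (SE 0.21). The gene shares 767 exon bases with Rtraf on the opposite strand, 11.8% of its exon length, Rtraf held counts equal to 38.1% to 48.3% of those of Nid2, and the strand setting of the counting is not given in the sources used here. The count ratio of Nid1 to Nid2 was 2.88 ± 0.21 (SD, n = 3) in baseline Ajcl, 2.86 ± 0.30 (n = 3) in baseline ByJcl, 3.30 ± 0.45 (n = 2) in Ajcl at Day 5 and 2.96 ± 0.62 (n = 3) in ByJcl at Day 5. It did not differ beyond the replicate spread between substrains (exact permutation test within times, two-sided p = 0.565) or between times (exact permutation p = 0.355).

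Hspg2, which encodes the perlecan core protein (chr4:137196079-137298231, plus strand), varied most between baseline libraries of the 7 genes. It was at 297.1, 557.4 and 649.0 CPM in baseline Ajcl and 505.8, 774.6 and 526.8 CPM in baseline ByJcl. At Day 5 the levels were 437.4 and 447.2 CPM in Ajcl and 534.2, 427.8 and 491.4 CPM in ByJcl. The 5 Day 5 libraries in the fit thus lay within the baseline range. Day 5 against baseline averaged over the substrains was -0.25 (SE 0.19, 95% interval -0.67 to 0.17, edgeR adjusted p = 0.472). The baseline difference of ByJcl against Ajcl was 0.27 (SE 0.25), and it was -0.04 without Ajcl baseline replicate 1.

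Agrn, the agrin gene, was at 532.8, 751.6 and 620.3 CPM in baseline Ajcl and 764.0, 789.4 and 740.3 CPM in baseline ByJcl. At Day 5 it was at 705.5 and 802.6 CPM in Ajcl and 727.7, 618.2 and 667.0 CPM in ByJcl. All 3 ByJcl Day 5 libraries lay below all 3 ByJcl baseline libraries, while both Ajcl Day 5 libraries in the fit lay above the Ajcl baseline mean. Agrn was the 1 of 7 members with the Day 5 libraries of the substrains on opposite sides of their baseline means, as had 11.7% of all genes. Agrn and Npnt were the 2 of 7 members whose ByJcl libraries at Day 5 were all below those at baseline, as were 16.1% of all genes. The log2 fold change of Day 5 against baseline was 0.25 (SE 0.15) in Ajcl and -0.19 (SE 0.13) in ByJcl. The difference between these responses, the interaction, was -0.44 (SE 0.20, 95% interval -0.88 to 0.00), with an edgeR unadjusted p of 0.0510 and an adjusted p of 0.623. The Ajcl value depended on the excluded library: it was 0.02 with all 12 libraries, and -0.07 and -0.15 with that library in place of replicate 2 or 3. With all 12 the average response had the opposite sign (-0.08 in place of 0.03).

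Col18a1, whose product carries heparan sulfate and the endostatin domain (chr10:76888012-77002390, minus strand), was at 592.0, 814.9 and 638.5 CPM in baseline Ajcl and 825.1, 673.6 and 757.9 CPM in baseline ByJcl. At Day 5 it was at 645.3 and 842.6 CPM in Ajcl and 1009.4, 849.4 and 771.3 CPM in ByJcl. The highest library was ByJcl Day 5 replicate 1, and the groups overlapped in every comparison. Day 5 against baseline was 0.13 (SE 0.18) in Ajcl and 0.22 (SE 0.16, edgeR adjusted p = 0.426) in ByJcl. Slc19a1 shares 896 exon bases with it on the opposite strand, 12.7% of its exon length, and Slc19a1 held counts equal to 1.03% to 2.09% of those of Col18a1. The count ratio of Agrn to Hspg2 averaged 1.37 ± 0.42 (SD, n = 3) in baseline Ajcl, 1.31 ± 0.26 (n = 3) in baseline ByJcl, 1.70 ± 0.13 (n = 2) in Ajcl at Day 5 and 1.39 ± 0.05 (n = 3) in ByJcl at Day 5. That of Col18a1 to Hspg2 was 1.48 ± 0.50, 1.31 ± 0.40, 1.68 ± 0.29 and 1.81 ± 0.22 in the same order. Neither ratio differed between times beyond the replicate spread (exact permutation tests within substrains, p = 0.285 and p = 0.18, both 0.568 after adjustment over the 8 ratio tests).

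Npnt encodes nephronectin, which podocytes make. It was at 732.2, 1062.0 and 818.4 CPM in baseline Ajcl, 1012.0, 918.6 and 1033.6 CPM in baseline ByJcl and 890.5 and 835.6 CPM in Ajcl at Day 5. In ByJcl at Day 5 it was at 870.4, 528.9 and 606.5 CPM, all below the baseline ByJcl libraries, and replicates 2 and 3 were below every other library in the fit. Day 5 against baseline in ByJcl was -0.56 on the log2 scale (SE 0.19, 95% interval -0.98 to -0.15), that is 0.68-fold, with an edgeR unadjusted p of 0.0122 and an adjusted p of 0.0806. The adjusted p was 0.0321 in DESeq2. Leaving out ByJcl Day 5 replicate 1, the highest of its group, gave -0.80 with an edgeR adjusted p of 0.0139, and over the 20 alternatives the value ran from -0.80 to -0.42 with adjusted p from 0.0139 to 0.263. In Ajcl the corresponding value was -0.01 (SE 0.21, 95% interval -0.47 to 0.45). The interaction was -0.55 (SE 0.28, edgeR adjusted p = 0.641), so a difference in response between the substrains was not resolved with these libraries.

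Sparc encodes the collagen-binding protein SPARC. At baseline it was at 1453.3, 1600.8 and 1363.4 CPM in Ajcl and 1959.4, 1760.6 and 1710.6 CPM in ByJcl. At Day 5 it was at 1373.5 and 1521.6 CPM in Ajcl and 2386.4, 1821.8 and 1894.2 CPM in ByJcl. All 6 ByJcl libraries lay above all 5 Ajcl libraries in the fit. Sparc was the 1 of 7 members with no overlap and ByJcl higher at both times, as were 2.71% of all genes (9.19% at baseline and 16.9% at Day 5 taken singly). The log2 fold change of ByJcl against Ajcl was 0.30 (SE 0.14, edgeR adjusted p = 0.595) at baseline and 0.49 (SE 0.15, adjusted p = 0.215) at Day 5. Averaged over both times it was 0.39 (SE 0.10, 95% interval 0.17 to 0.62), or 1.31-fold (1.13 to 1.54), with an edgeR unadjusted p of 0.00257 and an adjusted p of 0.124. DESeq2 gave adjusted p of 0.0269 at Day 5 and 0.00510 for the average. Over the 20 alternatives, DESeq2 among them, the average ran from 0.31 to 0.43 with adjusted p from 0.00510 to 0.562, and the Day 5 value from 0.35 to 0.57 with adjusted p from 0.0269 to 0.988. With the excluded Ajcl Day 5 library, at 1388 CPM, the average was 0.39 with an edgeR adjusted p of 0.0814. Day 5 against baseline was -0.02 (SE 0.15) in Ajcl and 0.17 (SE 0.13) in ByJcl. The count ratio of Sparc to Nid1, which needs no scaling between libraries, was 4.49 ± 0.70 (SD, n = 3) in baseline Ajcl, 4.67 ± 0.57 (n = 3) in baseline ByJcl, 4.10 ± 0.01 (n = 2) in Ajcl at Day 5 and 5.23 ± 0.56 (n = 3) in ByJcl at Day 5. ByJcl exceeded Ajcl by 0.20 on the log2 scale (exact permutation test within times, two-sided p = 0.115, 0.568 after adjustment over the 8 ratio tests).

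**Figure D2:**
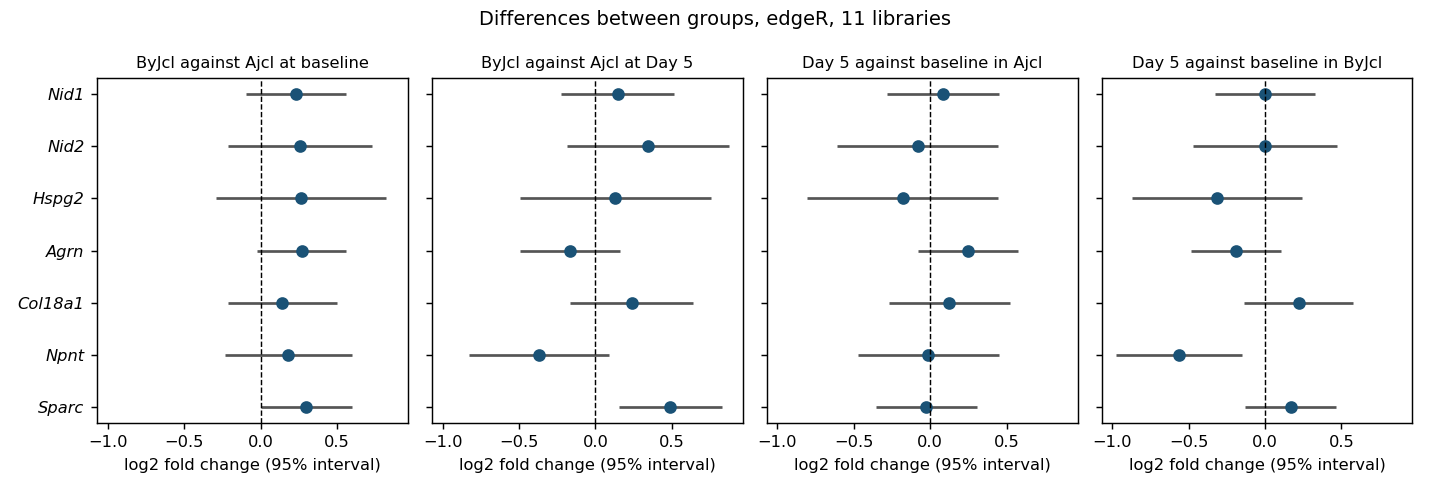
Log2 fold change with its 95% interval (x axes) of each gene (y axis) in the 4 comparisons of single groups; points are edgeR estimates from 11 libraries and the dashed line marks no difference. All 7 points lie above 0 for ByJcl against Ajcl at baseline, and the interval of Npnt for Day 5 against baseline in ByJcl ends at -0.15.

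At baseline 7 of 7 members had a value above 0 for ByJcl against Ajcl, with a median of 0.26 against 0.01 over all genes tested, of which 51.4% were above 0. At Day 5 the count was 5 of 7 with a median of 0.14, Agrn and Npnt being the exceptions. Markers of other cells were read in the same comparison: 0 of 8 proximal tubule markers and 0 of 6 distal nephron markers had a value above 0 at baseline, with medians of -0.78 and -1.27. Above 0 at baseline were 10 of 10 podocyte markers (median 0.22), 7 of 8 mesangial and pericyte markers (0.22), 7 of 7 leukocyte markers (0.69) and 8 of 10 glomerular endothelial markers (0.13). At Day 5 the podocyte markers ran the other way, with 1 of 10 above 0 and a median of -0.66, while 7 of 8 mesangial and pericyte markers (0.08), 6 of 7 leukocyte markers (1.18) and 6 of 10 endothelial markers (0.12) were above 0. Of the tubule markers 0 of 8 proximal and 0 of 6 distal were above 0 at Day 5, with medians of -0.88 and -1.42. Of the vascular smooth muscle markers 2 of 5 were above 0 at baseline (median -0.03) and 5 of 5 at Day 5 (0.30), and of the fibroblast markers 4 of 5 (0.29) and 2 of 5 (-0.31). At baseline no marker of these 8 lists passed in edgeR or DESeq2. At Day 5 edgeR called 1, Tagln of smooth muscle, higher in ByJcl, and DESeq2 called Tagln, Col1a1, Col1a2, Magi2, Calb1 and Cd68, which are named after their values were seen. The summed leukocyte markers did not overlap between the substrains at baseline (38.2 to 63.4 CPM in Ajcl and 64.8 to 111 CPM in ByJcl). Of all genes taken singly 14.5% did not overlap there, in either direction. The leukocyte markers Cd3e and Cd79a were below 1 CPM in every library. The summed tubule levels overlapped between the substrains at baseline. The part of the markers of these 8 lists in the members' values was not tested. Without Ajcl baseline replicate 1, the lowest of its group in all members but Sparc, the baseline median was 0.08 with 6 of 7 members above 0.

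For ADR the members showed no shared direction. Day 5 against baseline was above 0 in 3 of 7 members in Ajcl (median -0.01) and 4 of 7 in ByJcl (median 0.00), beside medians of -0.01 and 0.01 over all genes. In the same comparisons all 8 p53 target genes checked were above 0 in each substrain, with medians of 1.97 in ByJcl and 1.54 in Ajcl. In edgeR 8 passed in ByJcl and 5 in Ajcl, and DESeq2 called all 8 in both. In ByJcl 9 of 10 podocyte markers fell, with a median of -1.20, and 1 rose (Cdkn1c). In Ajcl 0 of 10 passed in edgeR and the median was -0.40. The summed podocyte markers were at 18824 to 21807 CPM in baseline ByJcl and 9834 to 14011 CPM in ByJcl at Day 5.

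Relative to the same podocyte markers, the members were higher in ByJcl at Day 5 than at baseline, Npnt, Hspg2 and Agrn by less than a gene of unchanged level would be. Since the mean marker sum went from 20447 to 11400 CPM in ByJcl, such a gene would be 1.79-fold higher relative to it at Day 5, beside 1.24-fold for Npnt, 1.48-fold for Hspg2, 1.64-fold for Agrn, 1.81-fold for Nid2, 1.86-fold for Nid1, 2.09-fold for Sparc and 2.18-fold for Col18a1. Npnt counts were 4.70% ± 0.25 (SD, n = 3) of the summed podocyte marker counts in baseline ByJcl and 5.82% ± 0.47 (n = 3) in ByJcl at Day 5, with no overlap, as had 70.1% of all genes on this ratio. The library with the lowest Npnt level at Day 5, replicate 2, was also the one with the lowest podocyte sum. For Sparc the same percentages were 8.60% ± 0.38 and 17.96% ± 0.65, for Agrn 3.65% ± 0.33 and 5.97% ± 0.64, and for Col18a1 3.57% ± 0.12 and 7.77% ± 0.70. In Ajcl the Npnt percentage was 4.82% ± 0.13 (n = 3) at baseline and 5.96% ± 0.85 (n = 2) at Day 5. The part of podocyte number in the Npnt level was not tested.

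**Figure D3:**
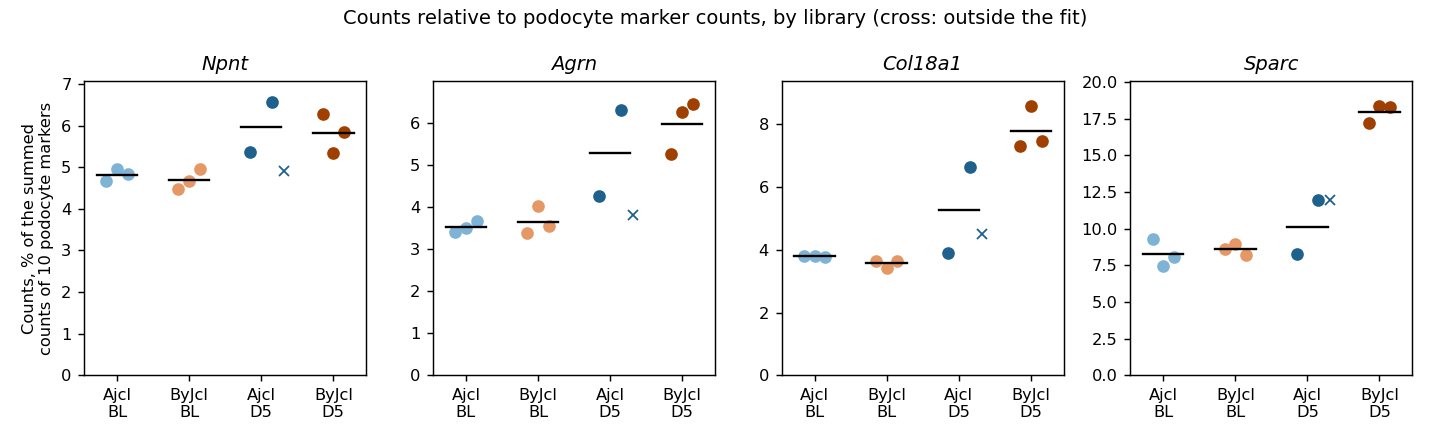
Counts of Npnt, Agrn, Col18a1 and Sparc as a percentage of the summed counts of 10 podocyte markers (y axes, linear, from 0) by library and group (x axes; BL, baseline; D5, Day 5); points are libraries in the fit, lines are means, and the cross is the excluded Ajcl Day 5 library. The ByJcl Day 5 libraries lie above both baseline groups for each gene, from means of 4.70% to 5.82% in ByJcl for Npnt and of 8.60% to 17.96% for Sparc, where a gene of unchanged level would be 1.79-fold higher.

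Within the 7 genes' RNA, Npnt had its lowest mean share and Sparc its highest in ByJcl at Day 5. Npnt made up 13.6% ± 1.5 (SD, n = 3) of the members' summed counts per kilobase there (range 12.3% to 15.2%), against means of 20.2% to 21.0% in the other groups. Sparc made up 53.2% ± 0.5 (n = 3, range 52.8% to 53.7%), against means of 43.8% to 46.9%. These shares were not tested. In the excluded Ajcl Day 5 library the shares were 17.4% for Npnt and 54.1% for Sparc, above the ByJcl Day 5 range for Sparc. These shares sum to a whole in each library, so a higher share of 1 gene lowers the others.

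**Figure D4:**
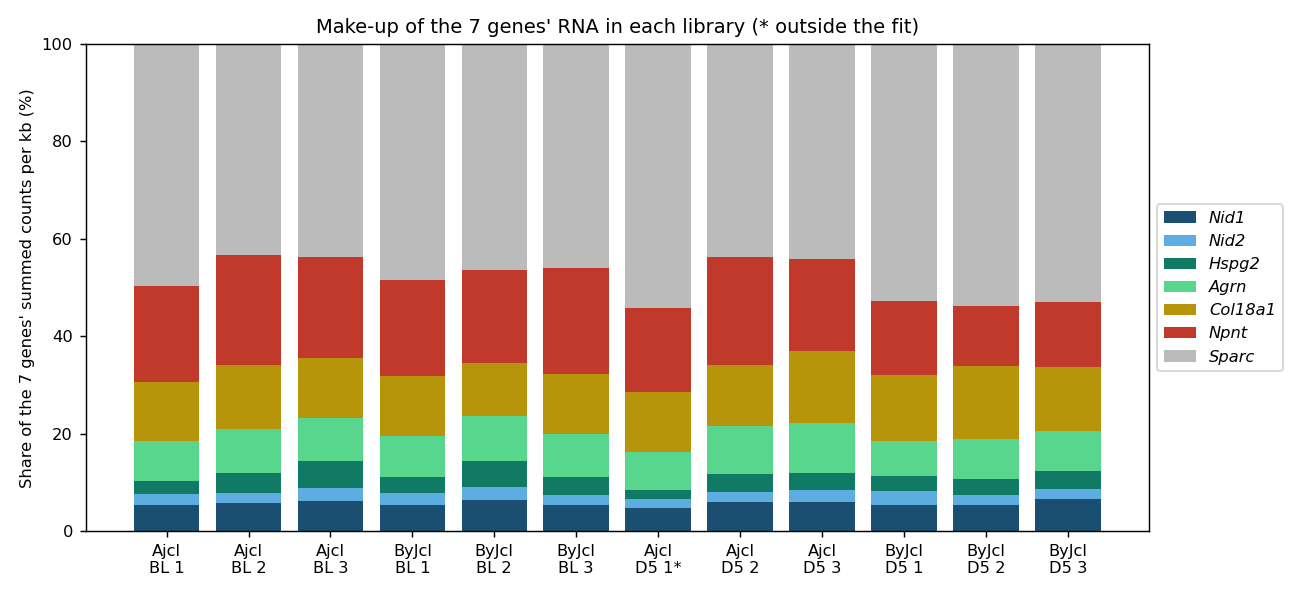
Share of each gene in the summed counts per kilobase of exon of the 7 genes (y axis, percent) in each of the 12 libraries (x axis; BL, baseline; D5, Day 5; the asterisk marks the library outside the fit). In the 3 ByJcl Day 5 bars Npnt takes 12.3% to 15.2% and Sparc 52.8% to 53.7%.

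Around the members, 85 tested genes in 6 lists of basement membrane partners were read from the same fits. For ByJcl against Ajcl averaged over both times 0 of these genes passed in edgeR, against 22 at an unadjusted p below 0.05, as were 15.9% of all genes. DESeq2 called 7 of the 85 there (8.24%, beside 3.98% of all genes), Col4a1, Col4a2 and Itgb1 among them. At Day 5 it called 8 (9.41%, beside 3.15%), among them Col4a2 at 1.21 (edgeR SE 0.29, edgeR adjusted p = 0.125) and Col4a1 at 0.96 (SE 0.24, adjusted p = 0.143). The others were Fstl1, Tinagl1, Fras1, Itgb1, Xylt1 and Extl1. In edgeR, values at Day 5 ran from -0.98 to 2.03 among paralogs and other basement membrane genes. Among genes that build or trim heparan sulfate they ran from -1.22 to 1.10. There edgeR called 0 of the 85, with 16 at an unadjusted p below 0.05, as were 14.0% of all genes. For the interaction 0 passed in either tool, with 11 at an edgeR unadjusted p below 0.05, as were 8.02% of all genes. Day 5 against baseline averaged over the substrains gave calls in each list, beside 6.29% of all genes higher and 4.15% lower. Of 6 collagen IV chains 4 rose: Col4a2 by 0.84 (SE 0.18), Col4a1 by 0.67 (SE 0.16), Col4a5 by 0.62 (SE 0.12) and Col4a6, at 0.99 to 3.11 CPM, by 1.18 (SE 0.29). The other 2, Col4a3 and Col4a4 of the mature glomerular network, were at -0.46 (edgeR adjusted p = 0.0502) and -0.22 (adjusted p = 0.351), and in ByJcl Col4a3 fell by 0.77 (edgeR adjusted p = 0.0213), with an interaction of -0.62 (adjusted p = 0.620). DESeq2 called Col4a3 in the average too, and 1 or 2 chains were called lower under 6 of the 20 alternatives. Col4a1 and Col4a2 form the network found in most basement membranes, and their means were 687 and 443 CPM in baseline ByJcl and 1353 and 1043 CPM in ByJcl at Day 5. In Ajcl they were 538 and 333 CPM at baseline and 694 and 452 CPM at Day 5, log2 differences of 0.37 and 0.44 (edgeR adjusted p = 0.682 and 0.676). With all 12 libraries 2 of the 6 passed, since Col4a1 and Col4a6 no longer did, and without Ajcl Day 5 replicate 3 none of these 4 kept its call. Of the 20 alternatives, the call was lost under 9 for Col4a6, 4 for Col4a1, 3 for Col4a5 and 2 for Col4a2. Of 11 laminin chains 1 fell, Lamb1, which fell by 0.55 (SE 0.15) and lost its call under 9 of 20 alternatives.

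Among 12 receptors of the members 4 rose and 1 fell. Itgb1, the integrin beta subunit that pairs with most laminin and collagen-binding alpha chains, rose by 0.42 (SE 0.10), and Itgb3 rose by 1.22 (SE 0.33). The Itgb1 call was lost under 4 of 20 alternatives and the Itgb3 call under 11, and the Itgb3 level in ByJcl at Day 5 was 30.7 ± 24.9 CPM (SD, n = 3). Itga6, a laminin receptor subunit, fell by 0.59 on the log2 scale (SE 0.08). Musk, the muscle kinase that agrin activates through its co-receptor, was also called but averaged 0.03 to 0.06 CPM at baseline, under the level of 3 counts, so no fold is given. Itgav was the other receptor that rose and is named here after its value was seen.

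Of 19 tested paralogs and other basement membrane genes 2 rose and 1 fell. Fbln2, a fibulin that binds nidogen and perlecan, rose by 0.73 (SE 0.08), Frem1 rose by 1.33 (SE 0.32) and Frem2 fell by 0.58 (SE 0.17). Frem2 lost its call under 14 of 20 alternatives and Frem1 under 4. Of 11 cell surface heparan sulfate proteoglycans 2 rose, the syndecans Sdc2 by 0.75 (SE 0.10) and Sdc4 by 0.41 (SE 0.11), whose call was lost under 8 of 20 alternatives. Of 26 tested genes that build or trim heparan sulfate 1 rose and 6 fell. Extl1, a glycosyltransferase of the exostosin family, fell by 1.02 (SE 0.19). In ByJcl alone Extl1 was at -1.67, with an interaction of -1.30 that did not pass in edgeR. Hs3st6, a 3-O-sulfotransferase, fell by 0.79 (SE 0.17) and Sulf1, an extracellular 6-O-endosulfatase, fell by 0.54 (SE 0.14). Its paralog Sulf2 rose by 0.49 (SE 0.11), and Sulf1 lost its call under 10 of 20 alternatives and Sulf2 under 4. Sdc2, Itga6 and Fbln2 kept theirs under each of the 20. In the same comparison 9 of 10 podocyte markers fell and 1 rose, with a median of -0.75. Of the other marker lists edgeR called Plvap of endothelium, Tagln of smooth muscle, Cldn1 of parietal epithelium and Cd68 of leukocytes higher. It called Col1a2 of fibroblasts lower. The part of all these markers in the values of the partner genes was not tested. In Ajcl alone 0 of the 85 genes passed for ADR in edgeR, with 13 at an unadjusted p below 0.05, as were 9.8% of all genes. DESeq2 called 5 of the 85 there (5.88%, beside 1.77% of all genes). In ByJcl alone 21 passed in edgeR (24.7%, beside 10.6% of all genes), and 12 did with all 12 libraries.

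**Figure D5:**
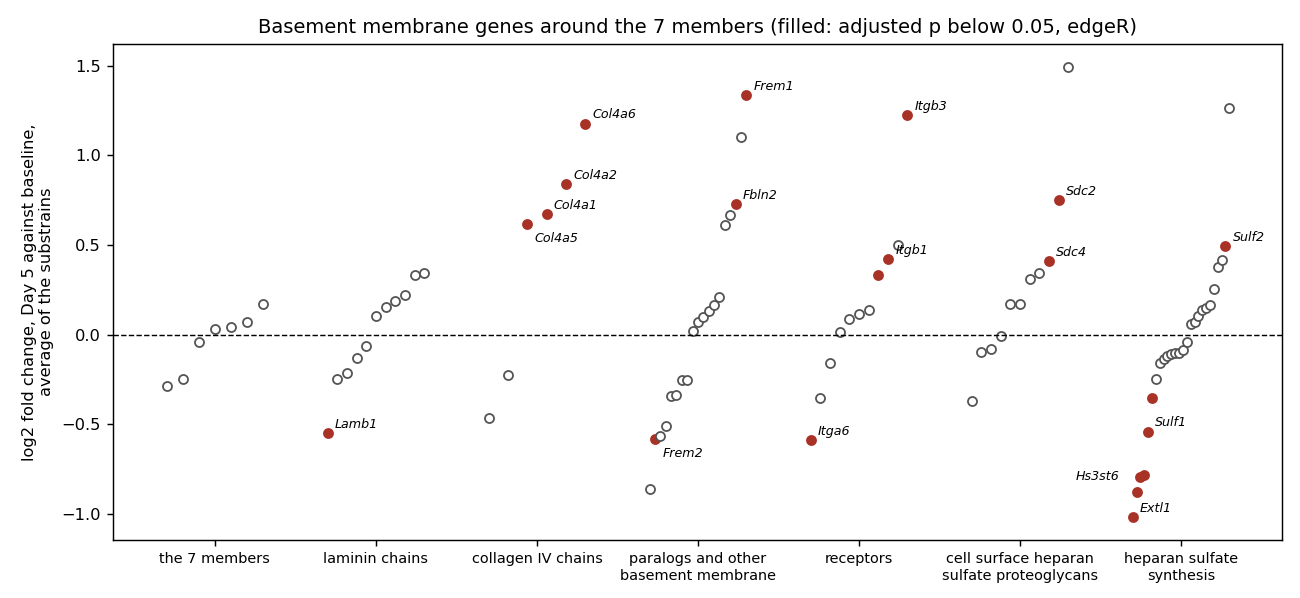
Log2 fold change of Day 5 against baseline, averaged over the substrains (y axis), for the 7 members and for the tested genes of 6 lists (x axis, genes ordered by value within a list; Musk is not drawn); filled points passed an edgeR adjusted p of 0.05, and the genes named in the text by rule are labelled. No member is filled, and 4 of 6 collagen IV chains are, between 0.62 and 1.18.

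Likeness of pattern was measured as the root mean square difference of centred log2 CPM over the 11 libraries, which share scaling and depth. Between members, Nid1 and Agrn were nearest (0.13 log2 units), followed by Col18a1 and Sparc (0.15), and Npnt and Sparc were farthest apart (0.39). Among the 3 nearest genes outside each member were Cnot3 and Arhgef25 for Nid1, P3h3, Arap1 and Pdgfrb for Nid2, and Zfhx2, Plxna4 and Asap2 for Hspg2. For the others they included Lamb2 and Als2cl for Agrn, Ifnar2, Phf7 and Cpne1 for Col18a1, Ptprs, Tle2 and Pex14 for Npnt, and Emp2, Ifnar2 and Gja4 for Sparc. The distances of the genes named were 0.07 to 0.15, beside medians over all genes of 0.29 to 0.42.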

How the data were processed

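Gene counts were deposited by the authors as 2 tables, baseline and Day 5, of raw counts for 26264 symbols. Per the labels and the study's methods, poly(A) strand-specific paired reads were trimmed with Trimmomatic, aligned to GRCm39 with STAR and counted with featureCounts; the annotation, strand setting and handling of read pairs are not given in the sources used here. Of counts from 1 to 49, 77.1% to 82.9% were even. Totals per library were 42198416 to 54687045 counts. If both reads of a pair were counted, the fragments behind them are fewer and the counting precision lower, and halved counts were run as an alternative.

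Counts were fitted with edgeR 4.0.16 (TMM, filterByExpr, quasi-likelihood test, Benjamini-Hochberg adjustment over 17002 genes, 4 group means, 11 libraries); the study itself used DESeq2, run here (1.42.0) as an alternative. Nothing in the labels says more of the replicates than their number, so p-values measure the spread between these samples. Replicate pairs differed by more than sampling noise (chi-square per degree of freedom 44.6 to 101 among the 11 libraries, and 234 and 271 for the pairs with the excluded library). Ratios of counts were tested by exact two-sided permutation within strata (200 arrangements, smallest p 0.005). Fits and tests were checked on simulated data. Exon lengths came from GENCODE M39 and promoters from RefSeq, both on GRCm39. Alternatives were all 12 libraries, swapped Ajcl Day 5 libraries, leaving out each library, other scaling, filters, a replicate block and halved counts. Beyond the members, genes were named by rule: up to 4 called genes with the smallest p from each pathway list, and the 3 most alike genes for each member, of which 2 are not reported here. The members, lists and tests were chosen with earlier results of these data known.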

Additional observations from a re-analysis of the deposited data

Results flagged for a closer look

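Agrn lay in opposite directions in the substrains: both Ajcl Day 5 libraries in the fit were above the Ajcl baseline mean and all 3 ByJcl Day 5 libraries were below the ByJcl baseline mean, an opposite placing that 11.7% of all genes had. In the same way, all ByJcl libraries were above the Ajcl mean at baseline and below it at Day 5, as in 10.7% of all genes with either order. The interaction was -0.44 on the log2 scale, with an edgeR adjusted p of 0.623, and it ran from -0.58 to -0.02 over the 20 alternatives. The excluded Ajcl Day 5 library, at 442 CPM with all 12 libraries scaled together, was below every other library for this gene, and the value for ADR in Ajcl was 0.02 with it in place of 0.25 without it.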

How the results depend on the processing

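No member was called by edgeR under all 12 libraries, either swap of Ajcl Day 5 libraries, RLE size factors, other filters, the replicate block or halved counts. DESeq2 called 1 member at Day 5 and 1 averaged over both times (Sparc both times) and 1 for ADR in ByJcl (Npnt). Leaving out single libraries gave 0 to 1 called members for ADR in ByJcl and 0 to 1 for ADR averaged, the 1 being Npnt without ByJcl Day 5 replicate 1, and 0 elsewhere. The cause of these moves, and of the changes of sign given next, was not tested.

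Most member values near 0 turned sign under some setting. With all 12 libraries these were Agrn between substrains at Day 5 (0.047), Col18a1 (-0.040) and Nid1 (-0.13) for ADR in Ajcl, Nid1 (-0.059) and Agrn (-0.077) for ADR averaged, and Nid1 (0.15) and Hspg2 (0.22) in the interaction. With Ajcl Day 5 replicate 1 in place of replicate 2 they were Agrn at Day 5 (0.10), Npnt between substrains averaged (0.041), Col18a1 (-0.036), Nid1 (-0.23) and Agrn (-0.066) for ADR in Ajcl, Nid1 (-0.028) and Nid2 (-0.030) for ADR in ByJcl, Nid1 (-0.13) and Agrn (-0.14) for ADR averaged, and Nid1 (0.20) and Hspg2 (0.38) in the interaction. In place of replicate 3 they were Agrn at Day 5 (0.22), Npnt averaged (0.013), Col18a1 (-0.23), Nid1 (-0.29) and Agrn (-0.15) for ADR in Ajcl, Nid1 (-0.14) and Agrn (-0.16) for ADR averaged, and Nid1 (0.30) and Hspg2 (0.41) in the interaction. Without a filter Nid1 (-0.0021) and Nid2 (-0.0013) turned for ADR in ByJcl.

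Leaving out single libraries moved Hspg2 between substrains at baseline from -0.036 to 0.50 and Agrn averaged from -0.021 to 0.12. For ADR in Ajcl the ranges were Nid1 -0.047 to 0.19, Sparc -0.11 to 0.040, Npnt -0.13 to 0.16, Hspg2 -0.47 to 0.067, Nid2 -0.32 to 0.097 and Col18a1 -0.091 to 0.29. For ADR in ByJcl they were Nid1 -0.084 to 0.12 and Nid2 -0.31 to 0.17. For ADR averaged they were Nid1 -0.017 to 0.10, Agrn -0.026 to 0.10 and Nid2 -0.20 to 0.053. In the interaction they were Nid1 -0.19 to 0.060, Hspg2 -0.38 to 0.16, Col18a1 -0.061 to 0.32 and Nid2 -0.21 to 0.33. Log2 ratios ranged from -0.16 to 0.11 for Col18a1 to Hspg2 between substrains, from -0.027 to 0.084 for Sparc to Nid1 between times and from 0.16 to 0.26 for Sparc to Nid1 between substrains, where leaving out Ajcl baseline replicate 1 gave an exact permutation p of 0.03.

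Counts of called genes over the whole table, beside 27, 28 and 96 between substrains at baseline, Day 5 and averaged, 53, 1800 and 1774 for ADR in Ajcl, ByJcl and averaged, and 0 in the interaction, moved by over 1.5 times as follows. All 12 libraries gave 72 at Day 5 and 1197 for ADR in ByJcl. The swap for replicate 2 gave 15 at Day 5, 59 averaged and 148 for ADR in Ajcl. The swap for replicate 3 gave 15 at baseline, 793 at Day 5, 839 averaged, 22 for ADR in Ajcl, 1040 for ADR averaged and 2 in the interaction. DESeq2 gave 101 at baseline, 535 at Day 5, 677 averaged, 301 for ADR in Ajcl and 22 in the interaction. No filter gave 56 at Day 5 and 99 for ADR in Ajcl. Leaving out single libraries gave 12 to 29 at baseline, 9 to 218 at Day 5, 34 to 280 averaged, 11 to 180 for ADR in Ajcl, 680 to 2056 for ADR in ByJcl, 531 to 1816 for ADR averaged and 0 to 5 in the interaction.

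Same-numbered replicates did not deviate together (correlations from -0.24 to 0.37), so the numbers were not taken to pair samples. The replicate block gave 26 called genes for ADR in Ajcl, called no member, and turned Sparc (0.031) and Npnt (0.021) for ADR in Ajcl and Nid2 for ADR in ByJcl (-0.029) and in the interaction (-0.019). With 2 or 3 libraries a group, the 95% intervals of single members spanned 0.4 to 1.7 log2 units.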
